A study of Homo sapiens with 9 samples.

Results

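The genes described here are 10 that make or modify the C-terminal tail of RNA polymerase II: its carrier POLR2A, the kinases CDK7, CDK9 and CDK12, the phosphatases SSU72, RPAP2, CTDSP1, CTDSP2 and CTDSPL, and the regulator GTF2F1. They were measured by RNA sequencing in MDA-MB-231, a human triple-negative breast cancer cell line. The cells carried a lentiviral short hairpin RNA: shCTDP1-#2 or shCTDP1-#1, both against CTDP1, or the scrambled control shScr, with 3 libraries in each group and 9 in all. All 3 groups were infected with virus made in 293FT cells and selected with puromycin. The labels do not tell whether a group's 3 libraries are separate cultures; a p-value here therefore reflects spread among libraries alone, and that spread may be technical.

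The deposited values carry genomic intervals of the hg19 build without gene names. Each member's interval was therefore chosen by position alone, as the one with the highest overlap over union with the gene's known span in kb. This picked 10 intervals of 57773, or of 55527 with coordinates of their own, with an overlap over union of 0.863 (RPAP2) to 0.996 (CDK12 and CTDSPL). No second interval reached more than 0.26 for any member. CDK7 was found on the alternate sequence HSCHR5_1_CTG1 of chromosome 5, not on the primary chromosome. Among intervals with coordinates of their own, no second one on chromosome 5 or an alternate sequence named after it overlapped the CDK7 span. Its reads may still be divided with any near-identical copy, and its level is less certain. All 10 members passed the filter of at least 1 TPM in at least 3 libraries. No other interval was given a name, so the level of CTDP1 and the markers of the cell line were not analysed here.

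The C-terminal domain is a long tail of the largest polymerase subunit, built from repeats of a heptad that reads tyrosine, serine, proline, threonine, serine, proline, serine. Kinases and phosphatases write and erase phosphate on its serines as the polymerase moves from promoter to gene end, and this decides which capping, splicing and termination factors ride along. CDK7, part of TFIIH, acts at the promoter; CDK9, the kinase of P-TEFb, releases paused polymerase; CDK12 sustains elongation and is known for keeping long DNA repair genes expressed. SSU72, RPAP2 and the small phosphatases of the CTDSP family remove phosphate from the serine at position 5, and CTDP1, the gene targeted by the hairpins, is best known for the serine at position 2. GTF2F1 is the large subunit of TFIIF, which binds CTDP1 and stimulates it.

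The heptads are the shared target of all these enzymes, so their coding sequence is shown first. In the longest reading frame of POLR2A, on chromosome 17, in a 6751-base transcript of GENCODE 29 (GRCh38), 21 exact copies of the heptad were found. They were written with 20 different DNA spellings, and copies differed at up to 10 of 21 bases. The first 4 copies follow, each with the codons of the serines at positions 2, 5 and 7 in capitals.
copy 1: tatTCCcccactTCAcccTCC
copy 2: tacTCCcctaccTCTccaTCC
copy 3: tatAGTcccacaTCAcccAGC
copy 4: tatTCGccaacgTCAcccAGC
The serine at position 5 was encoded by a codon that starts with TC in all 21 copies, whereas the serine at position 7 was encoded by AGT or AGC in 19.

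POLR2A and CTDSPL were the members that changed most. POLR2A rose with both hairpins, to a mean of 175 ± 41.1 TPM with shCTDP1-#2 and 276 ± 52.7 TPM with shCTDP1-#1, against 48.0 ± 7.29 TPM with shScr (SD, n = 3 each). CTDSPL fell with both, to 7.75 ± 1.34 TPM with shCTDP1-#2 and 10.8 ± 0.825 TPM with shCTDP1-#1, against 26.6 ± 1.93 TPM with shScr. The other 8 members lay within 1.5-fold of shScr in their means. TPM, an abundance in which the transcripts of a library are scaled for length and to a fixed total, is a share of the RNA in a library, so a change in total RNA per cell, or in the share of cells that express a gene, cannot be told apart from a change in its transcripts per cell.

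**Figure D1:**
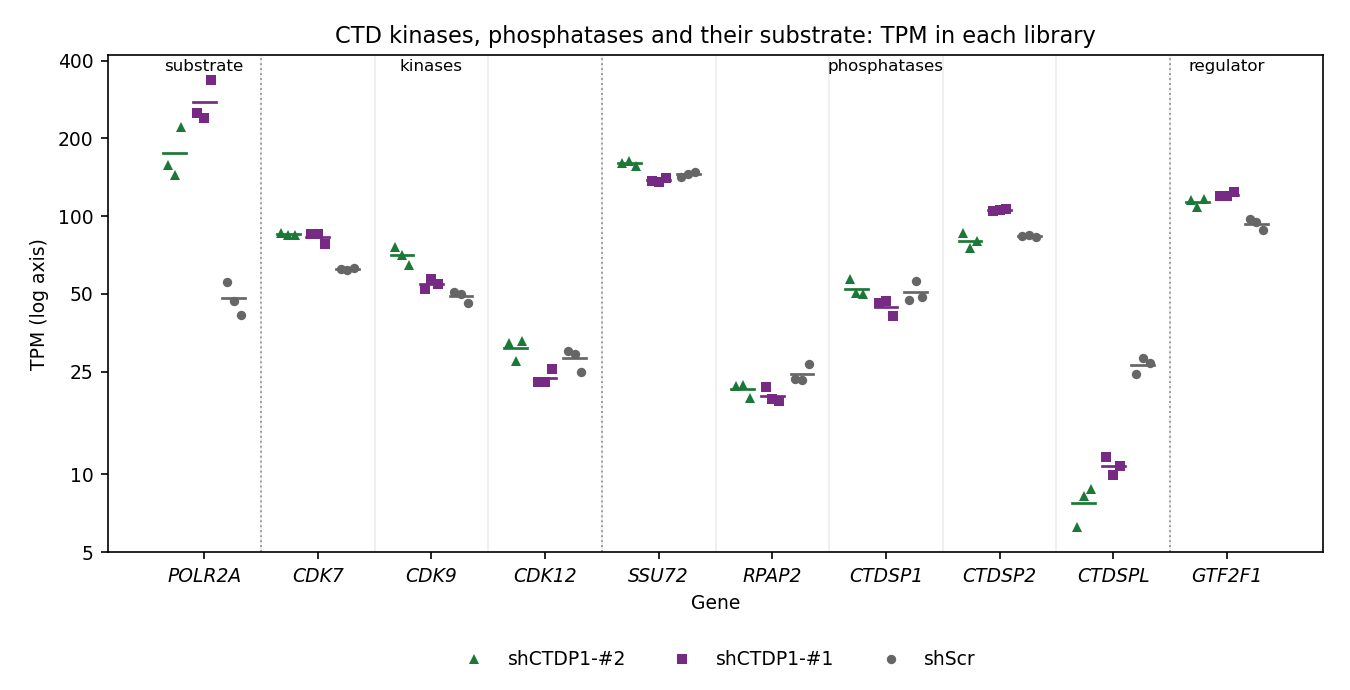
TPM of each member (log axis) in each library, grouped by role; triangles are shCTDP1-#2, squares shCTDP1-#1 and circles shScr, with a line at each group mean. POLR2A lies at 145 TPM or more in every knockdown library and at 55.8 TPM or less with shScr. CTDSPL is lower in every knockdown library than in every shScr library.

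Differences were tested with limma on log2(TPM + 1) over 15011 intervals, with Benjamini-Hochberg adjustment, and an adjusted p under 0.05 counted as a call. With shCTDP1-#2, 5 of the 10 members rose and 1 fell against shScr, where 39.5% of all tested intervals rose and 24.6% fell. That balance depended on scaling: 4 rose and 3 fell after either median-of-ratios scaling, where 31.6% of all intervals rose and 31.3% fell, or upper-quartile scaling, where 35.3% rose and 28.1% fell. With shCTDP1-#1, 4 rose and 3 fell, where 35.4% of all intervals rose and 27.7% fell, and after median-of-ratios scaling 4 rose and 5 fell, where 32.2% rose and 31.0% fell. In all, 6 and 7 of the 10 were called, against 64.0% and 63.1% of all tested intervals, so the share of called members was near the background. The median log2 change of the members was 0.14 with shCTDP1-#2 and 0.04 with shCTDP1-#1, against 0.13 and 0.07 over all tested intervals. Both comparisons share the 3 shScr libraries and are not independent of each other. The genes were listed with earlier results of these data known, so their shares and ranks among all intervals are descriptive.

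**Figure D2:**
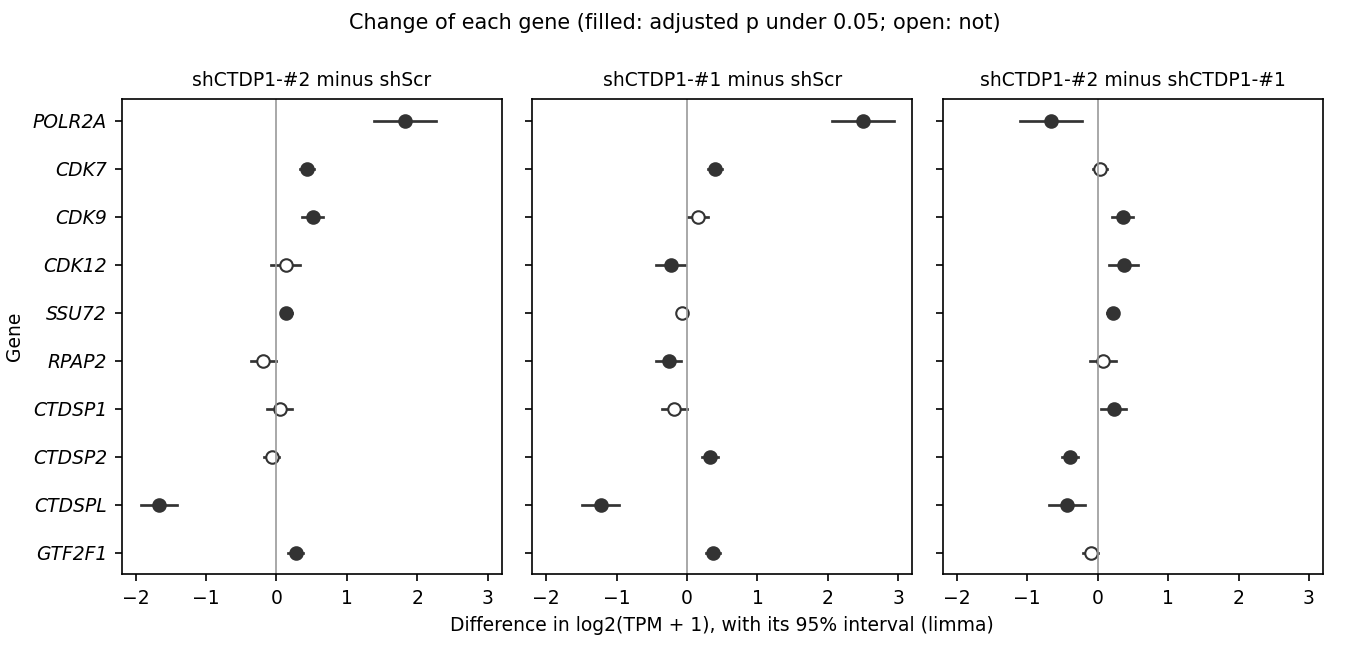
Difference in log2(TPM + 1) of each member in the 3 comparisons, with its 95% interval from limma; filled points passed an adjusted p of 0.05 and open points did not. POLR2A (1.83 and 2.50) and CTDSPL (-1.67 and -1.23) stand apart from the other members in both comparisons with shScr.

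POLR2A encodes the largest subunit of RNA polymerase II, which carries the catalytic centre and the C-terminal domain. Its interval lay on chromosome 17 from 7387685 to 7417933. It had 158, 145 and 222 TPM in the 3 shCTDP1-#2 libraries, 252, 241 and 337 TPM in the shCTDP1-#1 libraries, and 55.8, 46.9 and 41.3 TPM in the shScr libraries. No knockdown library overlapped with shScr: the lowest shCTDP1-#2 library was 2.60 times the highest shScr library, and the lowest shCTDP1-#1 library 4.32 times. Replicate 3 was the highest library in both knockdown groups and the lowest in shScr.

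The log2 change of POLR2A was 1.83 (SE 0.19) with shCTDP1-#2, a 3.64-fold ratio of means (limma adjusted p = 5.0e-05). With shCTDP1-#1 it was 2.50 (SE 0.19), a 5.76-fold ratio (limma adjusted p = 7.01e-06). Among 15011 tested intervals, POLR2A had the 202nd highest rise with shCTDP1-#2 and the 63rd highest with shCTDP1-#1. In level, it stood above 93.3% of tested intervals with shCTDP1-#2 and 96.1% with shCTDP1-#1, against 74.5% with shScr. Its coefficient of variation was the highest of the 10 members in every group, at 23.5% with shCTDP1-#2, 19.1% with shCTDP1-#1 and 15.2% with shScr.

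**Figure D3:**
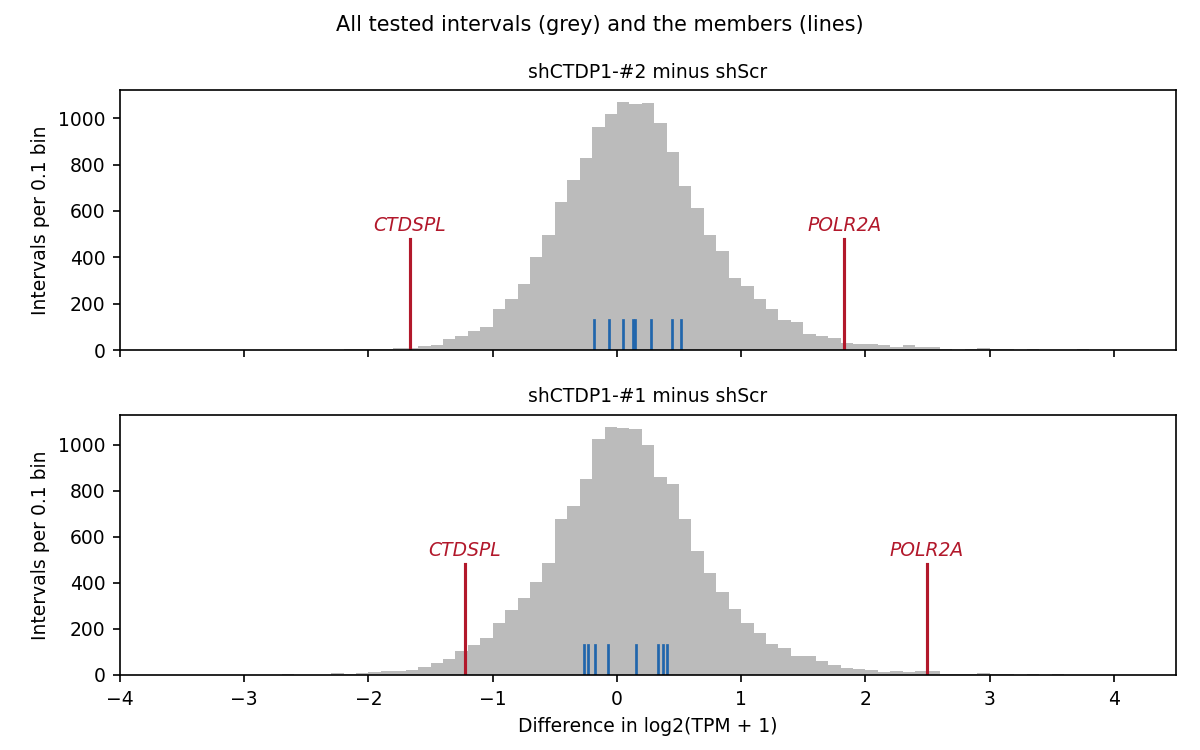
Number of tested intervals by difference in log2(TPM + 1), in bins of 0.1 (grey bars), for shCTDP1-#2 (top) and shCTDP1-#1 (bottom) against shScr; red lines mark POLR2A and CTDSPL and short blue lines the other 8 members. POLR2A lies in the far right tail in both, with 1.34% and 0.413% of tested intervals higher, while the 8 other members lie in the bulk of the distribution.

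The rise of POLR2A was not shared by the nearest tested interval on either side. This was not particular to POLR2A. Called members had 12 such neighbours with shCTDP1-#2, of which 3 were called in the member's direction, 6 in the opposite one and 3 not called. With shCTDP1-#1 there were 14, of which 2 went the same way, 7 the opposite way and 5 were not called. Of all tested intervals, 39.5% were called higher and 24.6% lower with shCTDP1-#2, and 35.4% and 27.7% with shCTDP1-#1. These neighbours lie at unlike distances, with shCTDP1-#1 up to 1025408 bases (CTDSP2). The interval closest to POLR2A, on chromosome 17 from 7362685 to 7387582, ends 102 bases before POLR2A begins. It had 11.7, 10.7 and 11.2 TPM with shCTDP1-#2, 18.5, 20.5 and 19.6 TPM with shCTDP1-#1, and 30.6, 31.9 and 30.8 TPM with shScr, so the groups did not overlap and the knockdown libraries were low. Its log2 change was -1.39 (limma adjusted p = 4e-08) and -0.65 (limma adjusted p = 8.52e-06) with shCTDP1-#2 and shCTDP1-#1. On the other side, the next tested interval, from 7452208 to 7464925, lies 34274 bases away from POLR2A. It also fell, to a mean of 7.64 TPM with shCTDP1-#2 and 5.72 TPM with shCTDP1-#1, against 23.0 TPM with shScr (limma adjusted p = 2.06e-05 and 3.65e-06). These positions were named by coordinates alone, since the files give no gene names.

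**Figure D4:**
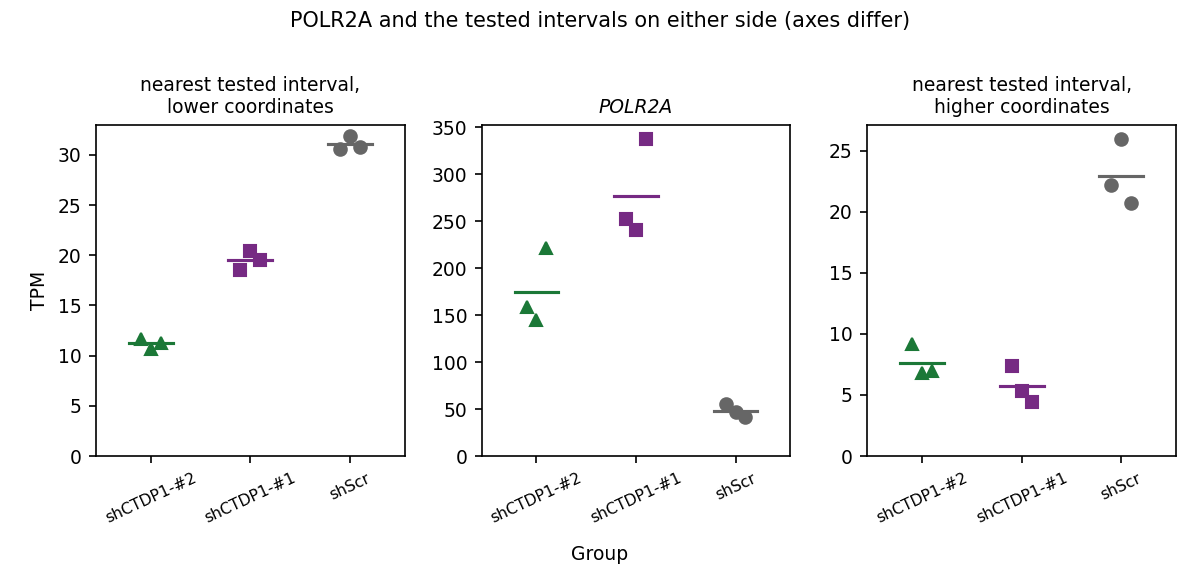
TPM in each library of POLR2A (middle) and of the nearest tested interval at lower (left) and higher (right) coordinates; each point is a library, each line a group mean, and the vertical axes differ. Both neighbours are lowest in knockdown libraries, at 20.5 TPM or less, where POLR2A is at 145 TPM or more.

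A promoter sequence was available for 9 of the 10 members in RefSeq (GRCh38.p14); CTDSPL was not matched. Those of POLR2A and GTF2F1 are shown because both genes rose with each hairpin and have 1 listed start each. The windows run from 250 bases before to 50 bases after the start, and capitals mark matches, on either strand and at any position, to 4 motifs. These were the TATA box, spelled TATAAA, the box spelled CCAAT, the GC box, spelled GGGCGG, and the ETS motif, spelled CCGGAAG; no matches overlapped in these windows. The POLR2A window is chr17:7484116-7484415 (plus strand) and the GTF2F1 window chr19:6393115-6393414 (minus strand).
POLR2A: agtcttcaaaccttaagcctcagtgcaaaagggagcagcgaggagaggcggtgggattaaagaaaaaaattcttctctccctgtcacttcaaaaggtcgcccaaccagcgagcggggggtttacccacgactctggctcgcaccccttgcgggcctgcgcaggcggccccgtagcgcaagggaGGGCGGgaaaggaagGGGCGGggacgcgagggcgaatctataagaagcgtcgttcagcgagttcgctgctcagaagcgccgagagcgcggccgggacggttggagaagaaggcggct
GTF2F1: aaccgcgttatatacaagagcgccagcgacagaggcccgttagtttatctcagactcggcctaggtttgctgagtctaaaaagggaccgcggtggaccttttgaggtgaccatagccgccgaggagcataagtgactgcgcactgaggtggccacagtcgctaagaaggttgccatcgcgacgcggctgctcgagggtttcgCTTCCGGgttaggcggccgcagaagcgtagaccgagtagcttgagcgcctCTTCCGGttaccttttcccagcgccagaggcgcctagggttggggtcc
The POLR2A window held 2 GC boxes and none of the other motifs, and the GTF2F1 window held 2 ETS motifs and no GC box. Of 35116 windows of this length, 45% held a GC box, 10.3% an ETS motif, 34.6% a CCAAT and 11.5% a TATA box.

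Of the kinases, CDK7 rose with both hairpins, and CDK9 rose with shCTDP1-#2. CDK12 was just past the threshold as lower with shCTDP1-#1, with overlapping groups and a call lost in 11 of 22 alternatives. CDK7 is the catalytic subunit of the CDK-activating complex within TFIIH, and its interval ran from 68530666 to 68573234 on HSCHR5_1_CTG1. It had 86.3, 84.2 and 84.3 TPM with shCTDP1-#2, 85.56, 84.97 and 77.97 TPM with shCTDP1-#1, and 62.5, 61.7 and 63.0 TPM with shScr. Every knockdown library was above every shScr library, and the 2 knockdown groups overlapped. Its log2 change was 0.44 (SE 0.044, limma adjusted p = 1.05e-05) with shCTDP1-#2 and 0.40 (SE 0.044, limma adjusted p = 1.94e-05) with shCTDP1-#1.

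CDK9, the kinase that releases polymerase from promoter-proximal pausing, lay on chromosome 9 from 130547958 to 130553066. It had 75.9, 70.9 and 64.5 TPM with shCTDP1-#2, 52.2, 57.3 and 54.8 TPM with shCTDP1-#1, and 50.9, 49.8 and 46.3 TPM with shScr. The shCTDP1-#2 libraries were the highest of all, with a log2 change of 0.51 (SE 0.066, limma adjusted p = 6.34e-05). With shCTDP1-#1 the log2 change was 0.16 (95% interval 0.0098 to 0.30), and it missed the threshold (limma adjusted p = 0.0601). Without shCTDP1-#2 replicate 1 or replicate 3, which enter only through the shared spread, it passed (limma adjusted p = 0.0439 and 0.037), as it did with only shCTDP1-#1 and shScr in the fit (0.0416).

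CDK12, on chromosome 17 from 37617764 to 37721160, was at 32.4, 27.4 and 33.0 TPM with shCTDP1-#2, 22.8, 22.7 and 25.6 TPM with shCTDP1-#1, and 30.1, 29.3 and 24.9 TPM with shScr. Its groups overlapped in both comparisons with shScr. The log2 change was 0.13 with shCTDP1-#2 (95% interval -0.075 to 0.34, limma adjusted p = 0.238) and -0.23 with shCTDP1-#1 (95% interval -0.44 to -0.026, limma adjusted p = 0.0492). The call with shCTDP1-#1 was lost without replicate 1 or 3 of shCTDP1-#2 (limma adjusted p = 0.0578 and 0.0531), 1 or 2 of shCTDP1-#1 (0.128 and 0.129), or 1 or 2 of shScr (0.154 and 0.135).

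Summed over the 3 kinases, the level was 186 ± 7.19 TPM with shCTDP1-#2 and 161 ± 3.40 TPM with shCTDP1-#1, against 139 ± 4.81 TPM with shScr (SD, n = 3 each). POLR2A stood at 0.942 ± 0.241 of that sum with shCTDP1-#2 and at 1.72 ± 0.359 with shCTDP1-#1, against 0.343 ± 0.0414 with shScr. No knockdown library overlapped with shScr in this ratio, where the lowest was 0.794 and the highest shScr library 0.389. With shCTDP1-#1 the kinases did not move together. The means with shCTDP1-#1 and shScr were 82.8 and 62.4 TPM for CDK7, 54.7 and 49.0 TPM for CDK9, and 23.7 and 28.1 TPM for CDK12. The phosphatases summed to 322 ± 9.42 TPM with shCTDP1-#2, 319 ± 1.81 TPM with shCTDP1-#1 and 331 ± 9.27 TPM with shScr. These sums describe the members and were not tested.

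Among the phosphatases, CTDSPL had the largest change and was called lower with both hairpins, and RPAP2, at lower values in all knockdown libraries too, was called with shCTDP1-#1. CTDSP1, CTDSP2 and CTDSPL encode small phosphatases of one family, also known for the silencing of neuronal genes in other cells. The interval of CTDSPL ran on chromosome 3 from 37903451 to 38025960. It had 6.23, 8.26 and 8.76 TPM with shCTDP1-#2, 11.6, 9.97 and 10.8 TPM with shCTDP1-#1, and 24.4, 28.2 and 27.03 TPM with shScr. The groups did not overlap: the lowest shScr library was 2.79 times the highest shCTDP1-#2 library and 2.10 times the highest shCTDP1-#1 library.

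Its log2 change was -1.67 (SE 0.12, limma adjusted p = 6.97e-07) with shCTDP1-#2 and -1.23 (SE 0.12, limma adjusted p = 6.17e-06) with shCTDP1-#1. Its decrease ranked 32nd among the 15011 tested intervals with shCTDP1-#2 and 335th with shCTDP1-#1. Because 1 TPM is added before the logarithm, these changes slightly understate the ratios of the means, 0.292 and 0.406.

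CTDSP2, on chromosome 12 from 58213710 to 58240522, moved the other way with shCTDP1-#1. It had 85.8, 75.1 and 79.7 TPM with shCTDP1-#2, 104, 105 and 107 TPM with shCTDP1-#1, and 83.8, 84.9 and 83.2 TPM with shScr. The shCTDP1-#1 libraries were above all others, with a log2 change of 0.33 (SE 0.048, limma adjusted p = 0.000169). With shCTDP1-#2 the groups overlapped, and the log2 change was -0.067 (95% interval -0.18 to 0.040, limma adjusted p = 0.247). Without shCTDP1-#2 replicate 1 that difference passed as lower (-0.12, limma adjusted p = 0.0442), as it did after upper-quartile (-0.14, 0.0185) and median-of-ratios scaling (-0.20, 0.00291).

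CTDSP1, on chromosome 2 from 219262979 to 219270664, was at 57.0, 50.4 and 49.8 TPM with shCTDP1-#2, 46.2, 46.8 and 40.9 TPM with shCTDP1-#1, and 47.5, 56.0 and 48.7 TPM with shScr. The shCTDP1-#2 libraries overlapped with shScr, and the shCTDP1-#1 libraries lay just below them. Neither difference passed: the log2 change was 0.048 with shCTDP1-#2 (95% interval -0.13 to 0.23, limma adjusted p = 0.627) and -0.18 with shCTDP1-#1 (95% interval -0.36 to 0.00064, limma adjusted p = 0.0761). The first turned to -0.024 and -0.084 after upper-quartile and median-of-ratios scaling, and to -0.014 without shCTDP1-#2 replicate 1. The second passed after median-of-ratios scaling (-0.24, limma adjusted p = 0.0278).

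With shCTDP1-#1 the family changed in make-up at a like mean total, whereas with shCTDP1-#2 its total was lower too. The shCTDP1-#2 libraries summed to 134 to 149 TPM and the shScr libraries to 156 to 169 TPM. The 3 transcripts summed to 140 ± 7.90 TPM with shCTDP1-#2 and 161 ± 2.11 TPM with shCTDP1-#1, against 161 ± 6.94 TPM with shScr (SD, n = 3 each). CTDSPL made up 5.56 ± 1.20% of that sum with shCTDP1-#2 and 6.70 ± 0.509% with shCTDP1-#1, against 16.5 ± 0.689% with shScr. CTDSP2 was the most abundant of the 3 in every group, at 57.1 ± 0.846% with shCTDP1-#2, 65.6 ± 1.61% with shCTDP1-#1 and 52.1 ± 1.82% with shScr. These shares describe the 3 members and were not tested.

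**Figure D5:**
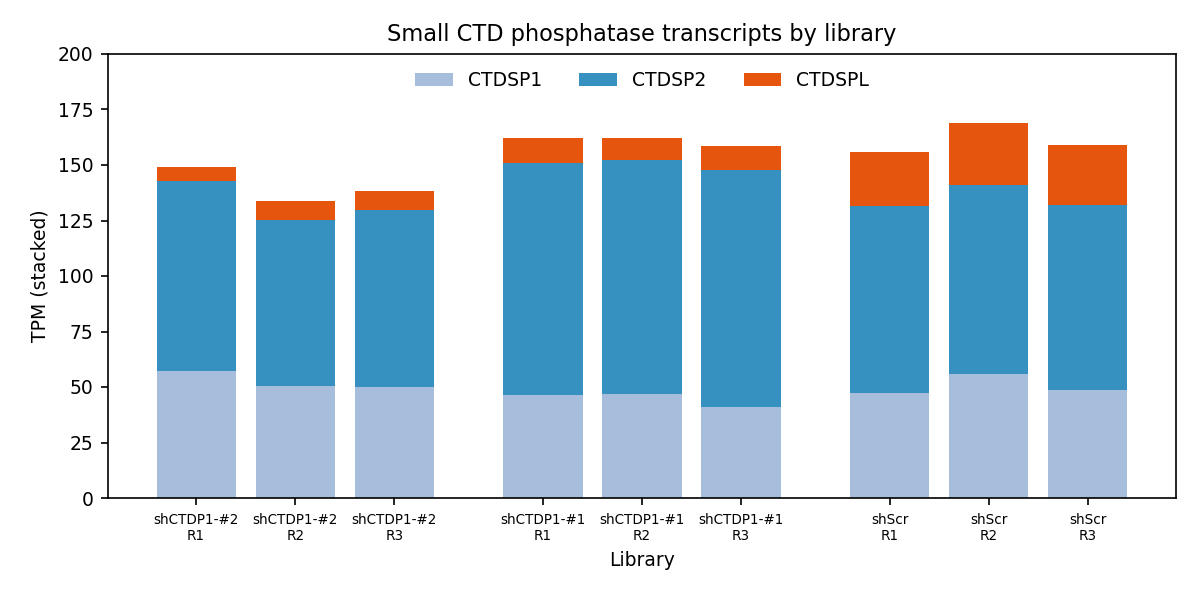
TPM of CTDSP1 (bottom), CTDSP2 (middle) and CTDSPL (top), stacked for each of the 9 libraries. CTDSPL takes 4.18% to 7.16% of the stack in the knockdown libraries and 15.69% to 17.01% with shScr.

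All 3 genes of this family host a miR-26 hairpin, per RefSeq (GRCh38.p14): MIR26B in CTDSP1, MIR26A2 in CTDSP2 and MIR26A1 in CTDSPL. The mature 5p strands are shown because they share 1 seed, bases 2 to 8, in capitals. The first is made from both MIR26A1 (chr3:37969413-37969434, plus strand) and MIR26A2 (chr12:57824658-57824679, minus strand), and the second from MIR26B (chr2:218402657-218402677, plus strand).
hsa-miR-26a-5p: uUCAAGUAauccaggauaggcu
hsa-miR-26b-5p: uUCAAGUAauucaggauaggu
The files list 1 interval of 77 bases inside CTDSP1, 1 of 84 bases inside CTDSP2 and 1 of 77 bases inside CTDSPL, the lengths of these hairpins in RefSeq, each at 0 TPM in all 9 libraries. The files give these intervals no names, and mature miRNAs were not measured here, so host transcript levels say nothing of miR-26 itself.

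SSU72, a phosphatase that also works in the cleavage and polyadenylation complex, was the most abundant member in shScr. Its interval lay on chromosome 1 from 1477053 to 1510249. It had 161, 163 and 156 TPM with shCTDP1-#2, 137, 136 and 141 TPM with shCTDP1-#1, and 141, 146 and 148 TPM with shScr. The shCTDP1-#2 libraries were the highest and the shCTDP1-#1 libraries the lowest, with no overlap with shScr in either comparison. The log2 change was 0.14 (SE 0.035, limma adjusted p = 0.00488) with shCTDP1-#2 and -0.072 (95% interval -0.15 to 0.0063, limma adjusted p = 0.0986) with shCTDP1-#1. The rise with shCTDP1-#2 was about the median of all tested intervals (0.13) and was lost after upper-quartile (0.069, limma adjusted p = 0.127) and median-of-ratios scaling (0.0078, limma adjusted p = 0.871); with shCTDP1-#1 it passed as lower after median-of-ratios scaling (-0.13, limma adjusted p = 0.0107).

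RPAP2, which also takes part in the nuclear import of RNA polymerase II, lay on chromosome 1 from 92764522 to 92867613. It was the least abundant member in shScr. It had 22.03, 22.15 and 19.8 TPM with shCTDP1-#2, 21.8, 19.5 and 19.2 TPM with shCTDP1-#1, and 23.4, 23.2 and 26.6 TPM with shScr, so all knockdown libraries were below all shScr libraries. The log2 change was -0.19 (95% interval -0.36 to -0.0086, limma adjusted p = 0.0635) with shCTDP1-#2 and -0.26 (SE 0.080, limma adjusted p = 0.0151) with shCTDP1-#1. Without shCTDP1-#1 replicate 3 or shScr replicate 3 the second missed the threshold (limma adjusted p = 0.0524 and 0.0623). The first passed after upper-quartile (-0.26, limma adjusted p = 0.0222) and median-of-ratios scaling (-0.32, limma adjusted p = 0.00852).

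GTF2F1, the TFIIF subunit, lay on chromosome 19 from 6379580 to 6393992. It had 115, 108 and 116 TPM with shCTDP1-#2, 120, 119 and 124 TPM with shCTDP1-#1, and 97.5, 94.7 and 88.4 TPM with shScr. Every knockdown library was above every shScr library. The log2 change was 0.27 (SE 0.047, limma adjusted p = 0.000473) with shCTDP1-#2 and 0.37 (SE 0.047, limma adjusted p = 5.24e-05) with shCTDP1-#1. After median-of-ratios scaling the change with shCTDP1-#2 was smaller, at 0.14 (limma adjusted p = 0.0128).

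The rank of the members by TPM, a level scaled for transcript length, was changed mainly by POLR2A. With shCTDP1-#2 the order was POLR2A, SSU72, GTF2F1, CDK7, CTDSP2, CDK9, CTDSP1, CDK12, RPAP2 and CTDSPL. POLR2A and SSU72 overlapped in range there, as did CDK7 with CTDSP2 and CTDSP2 with CDK9. With shCTDP1-#1, POLR2A led without overlap, CTDSP2 stood before CDK7, and CTDSPL was again last. In shScr, SSU72, GTF2F1, CTDSP2 and CDK7 led, POLR2A was 7th of the 10, and the ranges of CTDSP1, CDK9 and POLR2A overlapped, as did those of CDK12, CTDSPL and RPAP2.

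The hairpins differed from each other in 7 of the 10 members, against 50.2% of all tested intervals. With shCTDP1-#2, 4 members were higher than with shCTDP1-#1, where 30.2% of all intervals were, and 3 were lower, where 20.0% were. After median-of-ratios or upper-quartile scaling 3 were higher and 4 lower. POLR2A was lower with shCTDP1-#2 than with shCTDP1-#1 by 0.67 on the log2 scale (log2 difference -0.67, SE 0.19, limma adjusted p = 0.0191). The libraries of the groups did not overlap, with 222 TPM as the highest shCTDP1-#2 library and 241 TPM as the lowest shCTDP1-#1 library. Without shCTDP1-#2 replicate 1 or 2 the difference missed the threshold (limma adjusted p = 0.0673 and 0.0584).

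CTDSPL was lower as well (log2 difference -0.44, SE 0.12, limma adjusted p = 0.00952), and so was CTDSP2 (-0.39, SE 0.048, limma adjusted p = 7.28e-05). CDK12 (0.37, limma adjusted p = 0.00777), CDK9 (0.36, limma adjusted p = 0.00118) and SSU72 (0.21, limma adjusted p = 0.000537) were higher with shCTDP1-#2 than with shCTDP1-#1; the difference of SSU72 was 0.14 after median-of-ratios scaling (limma adjusted p = 0.0107). CTDSP1 was also higher (0.23, limma adjusted p = 0.0382), a call lost in 9 of 22 alternatives. Without replicate 1 or 2 of shCTDP1-#2 its adjusted p was 0.139 and 0.0501 in limma, and without replicate 1 or 3 of shCTDP1-#1 it was 0.0517 and 0.136.

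For CDK7, RPAP2 and GTF2F1 the difference between the hairpins did not pass. The 95% interval was -0.062 to 0.14 for CDK7, -0.10 to 0.25 for RPAP2 and -0.20 to 0.0059 for GTF2F1. After scaling, GTF2F1 was called lower with shCTDP1-#2 than with shCTDP1-#1 (upper-quartile -0.16, limma adjusted p = 0.00826; median-of-ratios -0.17, limma adjusted p = 0.00592), and the difference of CDK7 turned to -0.027 and -0.035 without a call.

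Without a test, separation of the libraries gave a like picture: 7 of the 10 members had no overlap between shCTDP1-#2 and shScr, where 67.9% of all tested intervals had none. For shCTDP1-#1 and shScr it was 9 of the 10, where 67.8% had none, and between shCTDP1-#2 and shCTDP1-#1 it was 8 of the 10, where 58.0% had none. The libraries were made with a kit that does not mark the strand, so reads of overlapping genes cannot be told apart by strand. Among the intervals with coordinates of their own, 12 overlap a member on its sequence, 10 of them wholly inside it, where the highest value was 3.77 TPM. RPAP2 shares 23 bases with an interval at up to 25.6 TPM. POLR2A and CDK7 overlap no other of these intervals. For CDK7 this count of overlaps covered HSCHR5_1_CTG1 alone, unlike the search with its span.

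The depth of the libraries is unknown, because TPM is scaled to 1 total in each. Intervals at 1 TPM or more numbered 13730 to 13856 in the shScr libraries and 14473 to 14799 in the knockdown libraries. Those above 0 numbered 19688 to 20208 and 21714 to 22636. Whether depth differed between the groups was not tested. The share of mitochondrial intervals was 4.47% in shScr replicate 1, against 1.12% to 2.28% in the other 8 libraries. With those intervals left out and TPM rescaled, CDK12 with shCTDP1-#1 was the one member whose call against shScr changed (limma adjusted p = 0.0511).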

How the data were processed

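RNA-seq values of 9 libraries were used as deposited, 1 file per library. The submitters' processing notes list the tools RSEM and STAR beside the build hg19; their versions are not given in the sources used here. Deposited values sum to the same total in each library, that of TPM, and are taken as such; the track headers name no unit. TPM holds no depth, so no counting interval is given. Files were joined on coordinates; 2246 rows with non-unique coordinates were dropped, as was the blank last row of 2 files.

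Members and lists were chosen with earlier results of these data known. Intervals that reached 1 TPM in 3 or more libraries were fitted as log2(TPM + 1) with limma 3.58.1 (trend, robust; statmod 1.5.0, R 4.3.3) in one fit of 9 libraries with 6 residual degrees of freedom. Benjamini-Hochberg adjusted p-values cover all 15011 intervals. The fit was also run on simulated data with independent noise and few changed intervals. That run does not cover the wide change and the dependence on scaling seen here. The rule for named genes was to account for all 10 members and to name no other interval unless a file or a reference of the build did. The other pathway genes and cell line markers listed in the design had no such name and were not analysed here. Alternatives numbered 20 planned and 2 chosen after seeing the data. Sequences come from RefSeq (GRCh38.p14) and GENCODE 29 (GRCh38), and no coordinates were moved between builds.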

Additional observations from a re-analysis of the deposited data

Results flagged for a closer look

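The effect of the 2 hairpins was unequal in 7 members, tested directly as shCTDP1-#2 minus shCTDP1-#1 (limma adjusted p under 0.05). The log2 differences were -0.67 for POLR2A, 0.36 for CDK9, 0.37 for CDK12, 0.21 for SSU72, 0.23 for CTDSP1, -0.39 for CTDSP2 and -0.44 for CTDSPL. Of all tested intervals, 50.2% differed in this test. Whether the hairpins lowered CTDP1 to unequal levels was not tested.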

How the results depend on the processing

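POLR2A and CTDSPL held both direction and call against shScr in all 22 alternatives, at 1.65 to 1.95 and 2.35 to 2.61 for POLR2A and at -1.79 to -1.53 and -1.29 to -1.18 for CTDSPL (log2, shCTDP1-#2 then shCTDP1-#1). Tested against a fold change of 1.5, which asks for a larger change, 1 member passed as higher and 1 as lower with each hairpin (limma). Of all tested intervals, 9.52% passed as higher and 3.84% as lower with shCTDP1-#2, and 7.89% and 5.82% with shCTDP1-#1. Between the hairpins 0 members were higher and 0 lower, also at an unadjusted p under 0.05, where 2.84% and 1.58% of all intervals passed after adjustment. Without that fold 4 members were higher and 3 lower between the hairpins. Median-of-ratios scaling moved the median of all tested intervals with shCTDP1-#2 by -0.12. It gave 4 higher and 3 lower members with shCTDP1-#2, where 31.6% and 31.3% of all tested intervals were. With shCTDP1-#1 it gave 4 and 5, where 32.2% and 31.0% were. Upper-quartile scaling gave 4 higher and 3 lower members with shCTDP1-#2, where 35.3% and 28.1% of all were. CTDSP1 with shCTDP1-#2 turned to -0.084 and -0.024 under these scalings, and CDK7 between the hairpins to -0.035 and -0.027, none of them called. Relative to the median of all tested intervals, the changes with shCTDP1-#2 were 1.70 for POLR2A, 0.38 for CDK9, 0.31 for CDK7, 0.14 for GTF2F1, 0.0091 for SSU72 and -1.80 for CTDSPL. Leaving out each library in turn gave 5 higher and 1 to 2 lower members with shCTDP1-#2. Of all tested intervals, 36.6% to 39.4% were then higher and 22.4% to 24.6% lower. With shCTDP1-#1, 4 to 5 members were higher and 2 to 3 lower, where 32.4% to 35.4% and 25.5% to 27.8% of all were. Between the hairpins, 3 to 4 members were higher and 2 to 3 lower, where 26.9% to 30.2% and 17.7% to 19.9% of all were. CTDSP1 with shCTDP1-#2 then ran from -0.014 to 0.12 and CDK7 between the hairpins from -0.0059 to 0.060.

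Replicate numbers recur in each group. Deviations of same-numbered libraries correlated at -0.0066 to 0.053, and those of pairs with unlike numbers at -0.046 to 0.024. All these values are low, and the main fit did not pair the libraries. For 8 of 9 libraries the best match in another group was nonetheless one of its own number, which 2 of the 6 candidates carry. This is a hint of pairing from the values that the design does not carry. Under the replicate block the calls were 5 higher and 1 lower for shCTDP1-#2, where 39.2% and 24.2% of all tested intervals were. For shCTDP1-#1 they were 4 higher and 2 lower, where 35.2% and 27.4% of all were. The call of CDK12 was not made there (limma adjusted p = 0.0683). Between the hairpins the calls were 4 higher and 3 lower, where 29.8% and 19.7% of all were. Of the single-member values under the alternatives, 599 kept direction and side of the threshold, 40 lost a call, 12 gained one and 6 turned without a call. With primary chromosomes alone CDK7 gave no value. Depth is unknown, and 3 libraries per group limit the precision.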
